A study of Mus musculus with 8 samples.

Results

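The genes described here encode the subunits that set the 3 assemblies of the mammalian SWI/SNF chromatin remodeller apart. They were chosen by symbol: Arid1a, Arid1b and Dpf2 for BAF, Arid2, Pbrm1, Brd7 and Phf10 for PBAF, and Brd9, Gltscr1 and Gltscr1l for ncBAF. Each of these 10 symbols had a row among the 28460 genes of the table, and each passed the filter on low counts. RNA-seq was carried out on spermatogenic cells of mice of mixed strain background at postnatal day 12, with 4 Brg1 cKO libraries (conditional knockout of Brg1, the ATPase encoded by Smarca4) and 4 Brg1 WT libraries, which the design text calls biological replicates. The sources used here give neither the Cre that drives the deletion nor the exons it removes. The testis cells were digested and sieved with no sort by a marker named, so somatic cells could be present in both genotypes.

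SWI/SNF complexes use the energy of ATP, through Brg1 or its paralog Brm, to slide or evict nucleosomes. The ATPase and a core of shared subunits join mutually exclusive sets of accessory subunits: BAF carries ARID1A or ARID1B with a DPF protein, PBAF carries ARID2, PBRM1, BRD7 and PHF10, and ncBAF carries BRD9 with GLTSCR1 or GLTSCR1L. Brg1 is known to be needed for male germ cells of the mouse to pass through meiotic prophase. The comparison of Brg1 cKO with Brg1 WT is used here to ask whether transcripts of the subunits that occupy these alternative positions differ when the shared ATPase gene is deleted.

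Library totals ran from 20456700 to 32596000 estimated counts, and the members had between 504 and 9660 estimated counts in a library. Levels are CPM, counts relative to library totals scaled with TMM factors. Smarca4 had 111 to 129 CPM in Brg1 cKO and 338 to 357 CPM in Brg1 WT. Germ cell markers were present in every library, with 12 of 12 pan-germ cell genes tested and none at 0, as were 16 of 16 Sertoli cell genes and 12 of 12 peritubular and stromal genes. The summed level of 12 meiotic prophase genes was 944 to 1144 CPM over the Brg1 cKO libraries, against 1859, 1466, 1340 and 1334 CPM in Brg1 WT replicates 1 to 4. Brg1 WT replicates 1 and 2 thus held the most of these transcripts, and results are also given without them.

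The 250 bases before the annotated start are shown for 3 of the members whose transcripts differed between the genotypes, to set the DNA next to the start of a gene that rose beside that of genes that fell. They are from the RefSeq promoter table (build GRCm38.p6), in which 7 of the 10 members and 4 of the 6 called were matched, and the window of Arid1b was left out because it lies wholly inside the GENCODE M21 gene. The sequences are those of Arid1a, which was higher in Brg1 cKO, at chr4:133756770-133757019 on the minus strand, and of Brd7 and Phf10, which were lower, at chr8:88362173-88362422 and chr17:14961261-14961510, both on the minus strand. Capitals mark each match to GGGCGG, the GC box, on either strand.
Arid1a: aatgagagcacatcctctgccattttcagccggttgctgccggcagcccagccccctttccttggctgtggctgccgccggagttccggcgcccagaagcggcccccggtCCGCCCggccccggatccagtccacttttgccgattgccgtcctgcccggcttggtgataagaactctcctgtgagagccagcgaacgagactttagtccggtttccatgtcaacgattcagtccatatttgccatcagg
Brd7: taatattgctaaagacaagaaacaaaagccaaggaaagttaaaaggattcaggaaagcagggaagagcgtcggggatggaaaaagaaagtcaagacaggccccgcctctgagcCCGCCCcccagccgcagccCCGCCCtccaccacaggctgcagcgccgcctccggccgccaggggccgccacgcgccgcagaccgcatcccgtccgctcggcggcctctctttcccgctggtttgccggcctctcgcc
Phf10: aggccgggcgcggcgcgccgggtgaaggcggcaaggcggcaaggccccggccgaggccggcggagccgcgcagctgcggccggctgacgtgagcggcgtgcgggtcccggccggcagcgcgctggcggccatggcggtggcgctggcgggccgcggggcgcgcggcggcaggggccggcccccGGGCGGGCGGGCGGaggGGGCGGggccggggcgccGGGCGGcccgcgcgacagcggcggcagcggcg
GC boxes stood at 1 position in the Arid1a window, at 2 in that of Brd7 and at 5 in that of Phf10, where neighbouring matches overlap, and 33% of 27025 windows of this length held at least 1. None of the windows held CCAAT (in 34.5% of all windows), CACGTG (6.04%) or TGACGTCA (1.6%) on either strand. GC content was 61.2% in the Arid1a window, 64.0% in that of Brd7 and 88.4% in that of Phf10, with 18, 22 and 51 CpG dinucleotides. The last 22 bases of the Brd7 window and 13 of the Phf10 window lie inside the GENCODE gene. These letters describe the windows, and no measurement of binding or accessibility was analysed here.

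In Brg1 cKO the transcripts of the large ARID and GLTSCR subunits of BAF and ncBAF were higher, and those of the PBAF subunits Brd7 and Phf10 were lower, by 1.17- to 1.36-fold on TMM scaling, a direction that turned for Brd7 and Phf10 when set against the pan-germ cell median and for Arid1a, Gltscr1 and Gltscr1l when set against the Sertoli cell median. Arid1a, Arid1b, Gltscr1 and Gltscr1l rose, Brd7 and Phf10 fell, and Dpf2, Arid2, Pbrm1 and Brd9 did not pass the test (edgeR quasi-likelihood test, adjusted p under 0.05 over the 16059 genes tested). This made 6 of 10 members called, where 20.6% of all genes tested were called, with 4 higher (8.79% of all genes) and 2 lower (11.8%). The members lay between percentiles 53.4 and 97.8 of level among the genes tested. The 20.6% also covers genes of lower level, and the share among genes of like level was not counted. The libraries of the genotypes did not overlap for 7 of the members and for 26.0% of all genes tested. The median log2 fold change was 0.13 over the members and 0.013 over all genes tested, and the median of its absolute size was 0.26 and 0.23. Because the libraries hold mixed cells, fewer cells of a type and less RNA per cell cannot be told apart.

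**Figure D1:**
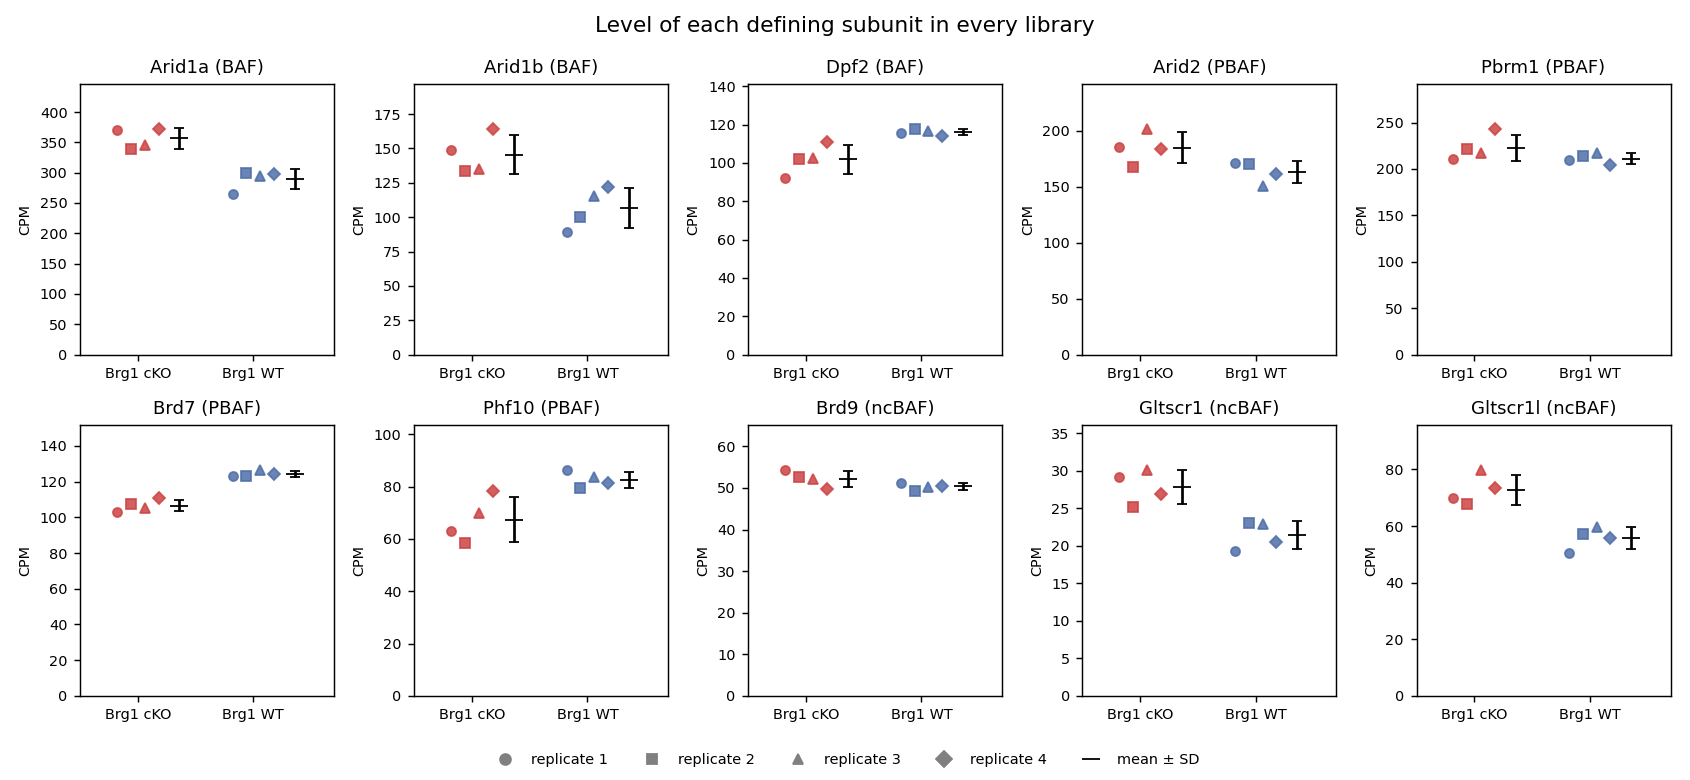
CPM of each of the 10 defining subunits in the 4 Brg1 cKO libraries (left in each panel) and the 4 Brg1 WT libraries (right), with symbols for the replicates and the mean ± SD beside them. Every Brg1 cKO library lies above every Brg1 WT library for Arid1a, Arid1b, Gltscr1 and Gltscr1l, and below for Dpf2, Brd7 and Phf10.

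Among the BAF subunits, Arid1a encodes a product that binds DNA through an ARID domain. Its transcript was more abundant than that of its paralog Arid1b in these libraries. Arid1a had 369.8, 339, 346 and 372 CPM in Brg1 cKO replicates 1 to 4, against 265, 299.7, 295 and 298 CPM in Brg1 WT replicates 1 to 4. The groups did not overlap, and Brg1 WT replicate 1 lay well below the other Brg1 WT libraries. The means were 357 ± 16.9 CPM in Brg1 cKO and 289 ± 16.4 CPM in Brg1 WT (SD, n = 4 each). On the log2 scale the fold change was 0.30 ± 0.064 (SE, edgeR adjusted p = 0.013). Without Brg1 WT replicate 1 the log2 fold change was 0.26 (edgeR adjusted p = 0.034).

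Arid1b, the paralog that takes the same position as Arid1a, had 149, 134, 135 and 164 CPM in Brg1 cKO replicates 1 to 4, against 89.5, 100.4, 115 and 122 CPM in Brg1 WT replicates 1 to 4. The groups did not overlap, and the levels were lowest in Brg1 WT replicates 1 and 2, the libraries with the most meiotic prophase transcripts. The log2 fold change was 0.45 ± 0.11 (SE, edgeR adjusted p = 0.019), and 0.30 ± 0.099 (SE, edgeR adjusted p = 0.14) without Brg1 WT replicates 1 and 2. The call was also lost without Brg1 cKO replicate 1 (edgeR adjusted p = 0.055) or Brg1 WT replicate 2 (edgeR adjusted p = 0.054). The part of the meiotic transcripts in this difference was not tested.

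Dpf2, a PHD finger protein that reads modified histone H3 tails, had 92.3, 102, 103 and 111 CPM in Brg1 cKO replicates 1 to 4, against 116, 118, 117 and 114 CPM in Brg1 WT replicates 1 to 4. Each Brg1 cKO library lay below each Brg1 WT library, with a wider spread in Brg1 cKO. The log2 fold change was -0.19 ± 0.061 (SE), which edgeR did not call (adjusted p = 0.056), while DESeq2 did (adjusted p = 0.037). It was called by edgeR without Brg1 cKO replicate 4 (adjusted p = 0.033).

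Of the PBAF subunits, Arid2, the ARID subunit found in PBAF in place of ARID1A or ARID1B, had 185, 168, 202 and 183 CPM in Brg1 cKO replicates 1 to 4, against 171, 169.9, 150.1 and 161 CPM in Brg1 WT replicates 1 to 4. The groups overlapped through Brg1 cKO replicate 2, the lowest of its genotype. The log2 fold change was 0.18 ± 0.071 (SE, edgeR adjusted p = 0.099), and without that library it was 0.22 (edgeR adjusted p = 0.044). Pbrm1, the polybromo protein with several acetyl-lysine binding bromodomains, had 211, 221, 217 and 243 CPM in Brg1 cKO replicates 1 to 4, against 209.8, 214, 217 and 204 CPM in Brg1 WT replicates 1 to 4. Its groups overlapped and its log2 fold change was 0.078 ± 0.059 (SE, edgeR adjusted p = 0.37).

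Brd7, a bromodomain protein of PBAF, was the steadiest of the called members. It had 103, 107, 105 and 111 CPM in Brg1 cKO replicates 1 to 4, against 123, 123, 126 and 124 CPM in Brg1 WT replicates 1 to 4. The groups were separate, with a coefficient of variation of 2.94% in Brg1 cKO and 1.24% in Brg1 WT. The log2 fold change was -0.22 ± 0.048 (SE, edgeR adjusted p = 0.014), and it stayed called with each of the 8 libraries left out in turn, at -0.24 to -0.20. Phf10, whose product carries paired PHD fingers, had 63.1, 58.5, 69.8 and 78.3 CPM in Brg1 cKO replicates 1 to 4, against 86.3, 79.4, 83.8 and 81.3 CPM in Brg1 WT replicates 1 to 4. The groups did not overlap, but Brg1 cKO replicate 4 lay just under the lowest Brg1 WT library. The log2 fold change was -0.30 ± 0.088 (SE, edgeR adjusted p = 0.041), a call that was lost when any library other than Brg1 cKO replicate 4 was left out, with a log2 fold change of -0.31 to -0.23 and a highest adjusted p = 0.11.

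Among the ncBAF subunits, Brd9, the bromodomain protein that marks this assembly, had 54.3, 52.5, 52.1 and 49.7 CPM in Brg1 cKO replicates 1 to 4, against 51.3, 49.3, 50.3 and 50.6 CPM in Brg1 WT replicates 1 to 4. The groups overlapped and no member had a smaller difference, 0.050 ± 0.055 on the log2 scale (SE, edgeR adjusted p = 0.53). Gltscr1, now named Bicra and a scaffold of ncBAF, had 29.2, 25.2, 30.1 and 26.9 CPM in Brg1 cKO replicates 1 to 4, against 19.3, 23.0, 22.9 and 20.5 CPM in Brg1 WT replicates 1 to 4. The groups did not overlap, and the log2 fold change was 0.38 ± 0.092 (SE, edgeR adjusted p = 0.021). This call was lost without Brg1 cKO replicate 1 (edgeR adjusted p = 0.064), Brg1 cKO replicate 3 (0.057) or Brg1 WT replicate 1 (0.051).

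Gltscr1l, now Bicral, is the paralog that takes the place of Gltscr1 in ncBAF. It had 69.8, 67.9, 79.8 and 73.4 CPM in Brg1 cKO replicates 1 to 4, against 50.6, 57.1, 59.6 and 55.8 CPM in Brg1 WT replicates 1 to 4. The groups were separate, and the means were 72.7 ± 5.24 CPM in Brg1 cKO and 55.8 ± 3.81 CPM in Brg1 WT (SD, n = 4 each). The log2 fold change was 0.38 ± 0.073 (SE, edgeR adjusted p = 0.0093), the smallest adjusted p among the members, and the call stayed with each library left out in turn (log2 fold change 0.34 to 0.43).

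**Figure D2:**
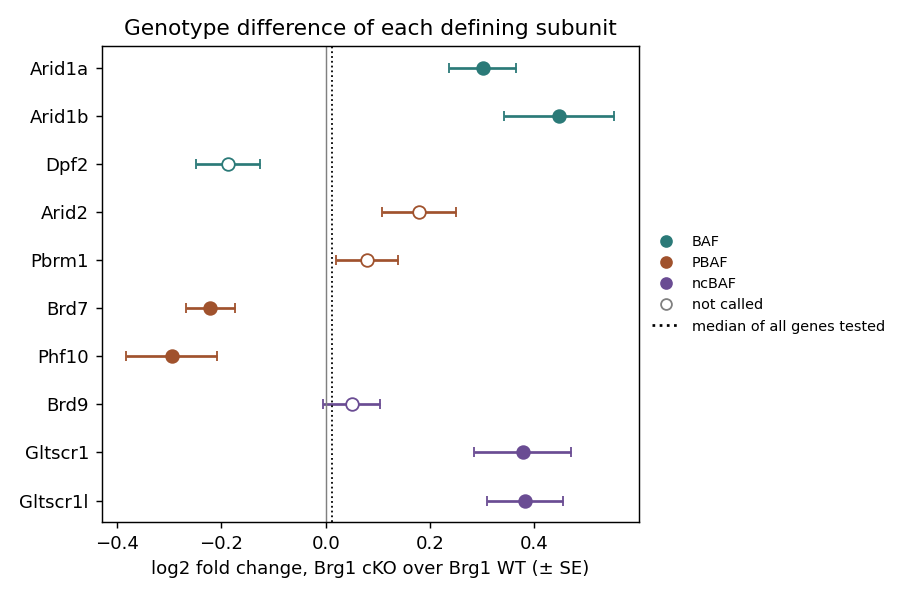
Log2 fold change of each defining subunit, Brg1 cKO over Brg1 WT, with its SE as bars, coloured by complex, with open circles for members that were not called and a dotted line at the median of all genes tested. On TMM scaling the 4 rises lie between 0.30 and 0.45 and the 2 falls at -0.22 and -0.30, and each complex holds at least 1 member that was not called.

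DESeq2 called 7 members, 4 higher and 3 lower, where it called 26.5% of all genes, 13.3% higher and 13.2% lower. Limma-voom called 4 higher and 2 lower, where it called 20.4% of all genes, 8.59% higher and 11.8% lower. The count of called members also depended on the libraries. Without Brg1 cKO replicate 1, 3 members were called (2 higher and 1 lower), in a fit that called 9.85% of all genes. Over the 8 fits with 1 library left out, 3 to 7 members and 9.85% to 21.4% of all genes were called. Arid1a, Brd7 and Gltscr1l were called in each of those 8 fits. The share of all genes called in each of the 8 was not counted. Without both Brg1 WT replicates 1 and 2, edgeR called none of the members, in a fit that called 2.66% of genes, 0.584% higher and 2.08% lower. The lowest edgeR adjusted p among the members there was 0.080, for Gltscr1l. In that fit the log2 fold changes of the 6 members kept their direction and were 0.27 for Arid1a, 0.30 for Arid1b, -0.23 for Brd7, -0.29 for Phf10, 0.36 for Gltscr1 and 0.34 for Gltscr1l.

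Markers of other cell types moved with the genotype beside these genes. The summed level of the 16 Sertoli cell genes was 5841 to 7906 CPM in Brg1 cKO and 4755 to 6006 CPM in Brg1 WT, with 9 called higher and none lower. The 12 pan-germ cell genes summed to 1464 to 1921 CPM in Brg1 cKO and 1899 to 2511 CPM in Brg1 WT, with 3 lower and none higher, and 9 of the 12 meiotic prophase genes were lower and none was higher. The 12 undifferentiated spermatogonia genes summed to 268 to 351 CPM in Brg1 cKO and 389 to 526 CPM in Brg1 WT, with 7 lower and 1 higher. The 12 peritubular and stromal genes summed to 2307 to 3770 CPM in Brg1 cKO and 1629 to 2777 CPM in Brg1 WT, with 2 higher and 1 lower. Of 8 Leydig cell genes 1 was higher and 7 were not called, and none of 6 endothelial or 5 tested macrophage genes was called (median log2 fold change 0.76 for Leydig, 0.32 for endothelial and 0.47 for macrophage genes). The part of the cell mixture in the members' differences was not tested.

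The level taken as no change, which the pan-germ cell median moves by -0.35 and the Sertoli cell median by 0.44 on the log2 scale, set the direction of most members. Over all genes, 1412 were called higher and 1900 lower on TMM scaling, against 8284 and 579 relative to the median of the pan-germ cell genes, and 50 and 9420 relative to the median of the Sertoli cell genes. Relative to the pan-germ cell median 8 members were higher and none was lower, in a fit that called 55.2% of all genes. Brd7 stood at 0.13 there (edgeR adjusted p = 0.046), and Dpf2 and Phf10 at 0.16 and 0.051, neither called. Fits of this kind take the marker median as known, so their adjusted p leaves out its error. The log2 fold changes of the markers ran from -0.98 to 0.23 for pan-germ cell genes and from -0.029 to 1.15 for Sertoli cell genes. Relative to the Sertoli cell median 6 members were lower and none was higher, in a fit that called 59.0% of all genes. That share was close to that of the members called. The 6 members were Dpf2, Arid2, Pbrm1, Brd7, Phf10 and Brd9. There the log2 fold changes of Arid1a, Gltscr1 and Gltscr1l were -0.14, -0.061 and -0.056 and that of Arid1b was 0.0084, none of them called. The distance between the members does not depend on this choice, and it was 0.74 on the log2 scale from Phf10 to Arid1b.

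**Figure D3:**
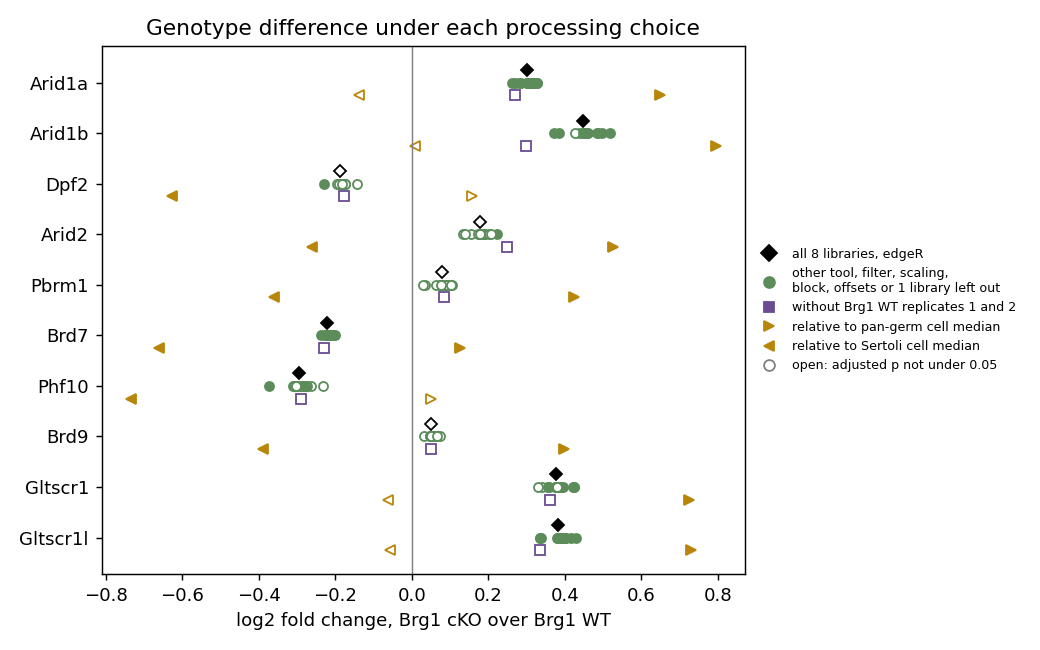
Log2 fold change of each defining subunit, Brg1 cKO over Brg1 WT, in the fit of all 8 libraries and under each processing alternative, filled where the adjusted p was under 0.05. Points from other tools, filters and left-out libraries stay on 1 side of 0 for each member, while those relative to the pan-germ cell and Sertoli cell medians move all members together, to the right and to the left.

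Transcript length differed between the members that rose and those that fell. The longest coding transcript of GENCODE M21 had 8187 bases for Arid1a, 11325 for Arid1b, 5975 for Gltscr1 and 6575 for Gltscr1l, against 3625 for Brd7 and 1663 for Phf10. Among the members not called, it had 8507 bases for Arid2 and 7907 for Pbrm1, longer than for Gltscr1 or Gltscr1l. For Dpf2 and Brd9, also not called, it had 3314 and 2430 bases. Over the table, the 2068 tested genes of at least 5975 bases had a median log2 fold change of 0.062, with 13.9% called higher and 12.8% lower, and the 9758 genes of at most 3625 bases one of -0.0056, with 6.88% higher and 11.1% lower. With offsets for length and GC content, chosen after seeing these lengths, the same 4 members were higher and the same 2 lower, in a fit that called 21.4% of genes, 9.01% higher and 12.4% lower. Their log2 fold changes then were 0.27 for Arid1a, 0.45 for Arid1b, 0.36 for Gltscr1, 0.34 for Gltscr1l, -0.22 for Brd7 and -0.28 for Phf10.

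Levels of different genes were set side by side per kilobase of that transcript, which need not be the transcript counted by the authors. On the scale of CPM per kb, Arid1a had 43.6 ± 2.07 in Brg1 cKO and 35.4 ± 2.00 in Brg1 WT. Phf10 had 40.5 ± 5.17 in Brg1 cKO, where its range overlapped that of Arid1a, and 49.7 ± 1.82 in Brg1 WT, above every other member. The place of Phf10 rests on its single annotated transcript of 1663 bases. Dpf2 had 30.7 ± 2.27 CPM per kb in Brg1 cKO and 35.0 ± 0.456 in Brg1 WT, Brd7 29.4 ± 0.864 in Brg1 cKO and 34.3 ± 0.424 in Brg1 WT, and Pbrm1 28.2 ± 1.78 in Brg1 cKO and 26.7 ± 0.683 in Brg1 WT. The ranges of these 3 overlapped in Brg1 cKO, and in Brg1 WT those of Arid1a, Dpf2 and Brd7 overlapped, with Pbrm1 below them. Arid2 had 21.7 ± 1.63 CPM per kb in Brg1 cKO and 19.2 ± 1.13 in Brg1 WT, and Brd9 21.5 ± 0.785 in Brg1 cKO and 20.7 ± 0.325 in Brg1 WT, with overlap between the genes in Brg1 cKO and Brd9 higher in Brg1 WT. Arid1b, Gltscr1l and Gltscr1 were lowest, at 12.9 ± 1.26, 11.1 ± 0.797 and 4.66 ± 0.370 in Brg1 cKO and 9.43 ± 1.29, 8.48 ± 0.579 and 3.59 ± 0.307 in Brg1 WT (SD, n = 4 each).

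The defining subunits of each complex were summed on TMM scaling. The ncBAF sum was 36.1 to 38.6 CPM per kb in Brg1 cKO and 32.0 to 33.6 in Brg1 WT. That of BAF was 83.9 to 93.4 in Brg1 cKO and 75.2 to 81.6 in Brg1 WT, with no overlap in either. Relative to the Sertoli cell median, the log2 fold changes of Arid1a, Arid1b and Dpf2 were -0.14, 0.0084 and -0.63. Those of Gltscr1, Gltscr1l and Brd9 were -0.061, -0.056 and -0.39. The sums were not computed at that level of no change, but with these values the rise of the BAF and ncBAF sums does not hold there. PBAF had 112 to 129.9 CPM per kb in Brg1 cKO and 128 to 132 in Brg1 WT, with overlap through Brg1 cKO replicate 4. As a share of the 10 members together, PBAF subunits made up 49.0% ± 0.967 in Brg1 cKO and 53.6% ± 1.15 in Brg1 WT, BAF subunits 35.7% ± 0.714 in Brg1 cKO and 32.9% ± 1.05 in Brg1 WT, and ncBAF subunits 15.3% ± 0.897 in Brg1 cKO and 13.5% ± 0.140 in Brg1 WT (SD, n = 4 each). None of the 3 shares overlapped between the genotypes. These values depend on the 1663-base length taken for Phf10. Without Phf10, a setting chosen after seeing the data, the PBAF sum was 79.3 ± 2.74 CPM per kb in Brg1 cKO and 80.2 ± 0.873 in Brg1 WT. Over the 9 members left, PBAF subunits made up 38.3% to 39.3% in Brg1 cKO and 40.9% to 42.9% in Brg1 WT, still without overlap. The BAF share was then 41.8% to 43.99% in Brg1 cKO and 40.03% to 42.2% in Brg1 WT, and the ncBAF share 17.0% to 18.9% in Brg1 cKO and 16.8% to 17.2% in Brg1 WT, both with overlap. A sum of transcripts is not a measure of assembled complexes, and these sums are given without a test. Among the 3 ARID genes, Arid2 took 27.8% ± 1.80 in Brg1 cKO and 30.0% ± 2.46 in Brg1 WT, Arid1a 55.8% ± 1.09 in Brg1 cKO and 55.3% ± 1.23 in Brg1 WT, and Arid1b 16.4% ± 1.02 in Brg1 cKO and 14.7% ± 1.62 in Brg1 WT, shares whose ranges overlapped between the genotypes.

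**Figure D4:**
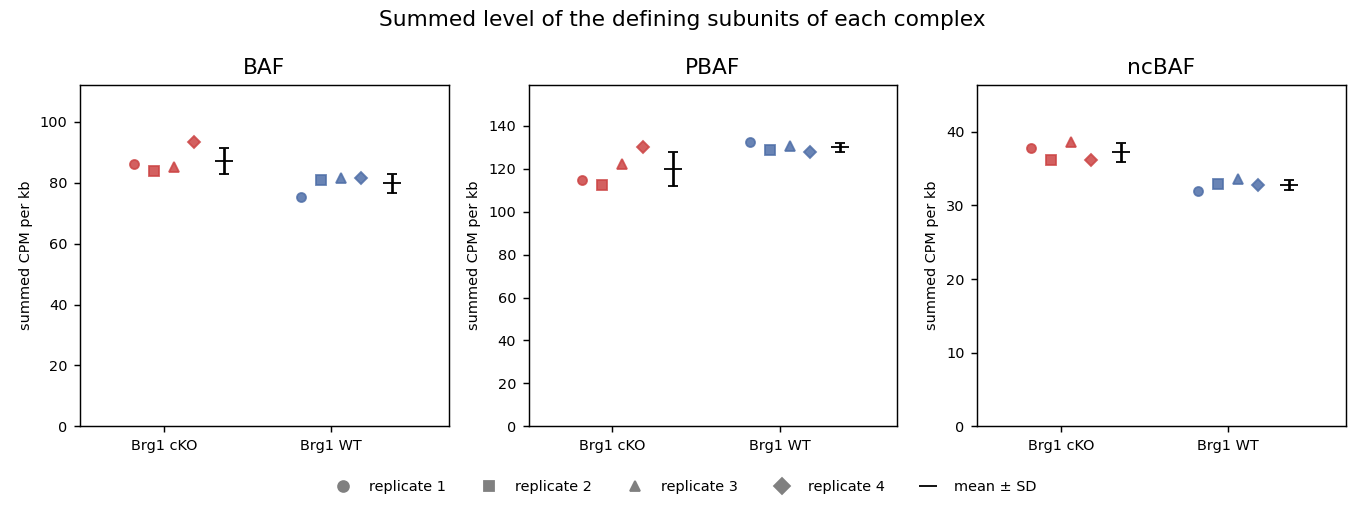
Summed CPM per kb of the defining subunits of BAF, PBAF and ncBAF in the 4 Brg1 cKO libraries (left in each panel) and the 4 Brg1 WT libraries (right), with the mean ± SD. On TMM scaling the ncBAF and BAF sums do not overlap between the genotypes. The PBAF sum of Brg1 cKO replicate 4, 129.9, lies within the Brg1 WT range of 128 to 132.

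Related subunits were compared within each library, where the ratio does not depend on scaling. Brd7 and Brd9, bromodomain paralogs of PBAF and ncBAF, stood at a CPM ratio of 1.90, 2.04, 2.02 and 2.22 in Brg1 cKO replicates 1 to 4, against 2.40, 2.50, 2.51 and 2.45 in Brg1 WT replicates 1 to 4. The ratio was lower in each Brg1 cKO library than in any Brg1 WT library, with a log2 difference of -0.27 ± 0.049 (SE; exact two-sided permutation test over 70 assignments of genotype, p = 0.0286, the smallest it can give). Adjusted over the 4 pairs compared, this p was 0.11 and did not pass the threshold. It could have passed only if other pairs had also given the smallest p, so the adjusted test cannot decide for this pair alone. The ratio of Arid1a to Arid1b was 2.27 to 2.56 in Brg1 cKO and 2.44 to 2.98 in Brg1 WT, a log2 difference of -0.15 ± 0.083 (SE, exact permutation p = 0.20, adjusted p = 0.27). Without Brg1 WT replicates 1 and 2 that difference was -0.027.

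The ratio of Dpf2 to Phf10, both double PHD finger proteins, was 1.41 to 1.74 in Brg1 cKO and 1.34 to 1.48 in Brg1 WT, a log2 difference of 0.11 ± 0.074 (SE, exact permutation p = 0.17, adjusted p = 0.27). Leaving out Brg1 cKO replicate 2 brought it to 0.045. Gltscr1 and Gltscr1l, which both rose by 0.38 on the log2 scale, stood at a ratio of 0.367 to 0.419 in Brg1 cKO and 0.369 to 0.404 in Brg1 WT. Their log2 difference was -0.0046 ± 0.051 (SE, exact permutation p = 0.89, adjusted p = 0.89).

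**Figure D5:**
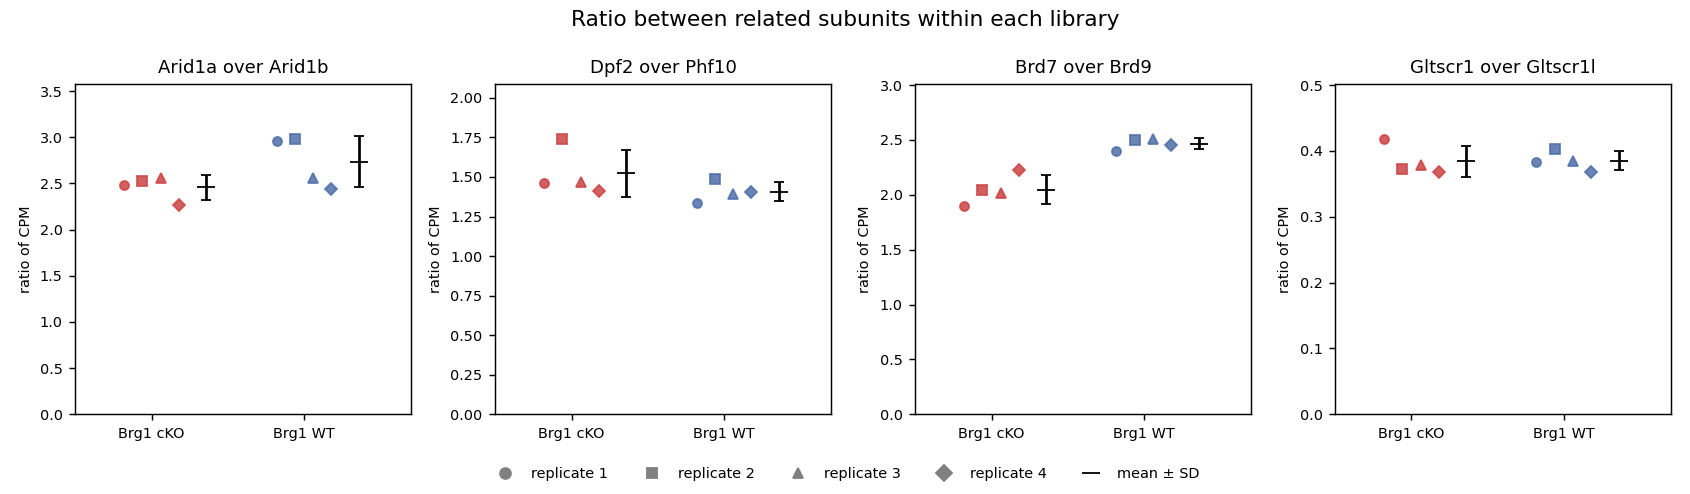
Ratio of the CPM of related subunits within each library, Brg1 cKO (left in each panel) and Brg1 WT (right), with the mean ± SD over 4 libraries. The Brd7 to Brd9 ratio is 1.90 to 2.22 in Brg1 cKO and 2.40 to 2.51 in Brg1 WT without overlap, and the other ratios overlap between the genotypes.

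The other subunits of SWI/SNF were taken from a list of 18 symbols, Smarca4 included. Of the 16 others that were tested, 1 was higher, none lower and 15 were not called, and the median log2 fold change was -0.043. The lowest edgeR adjusted p among these 15 was 0.058. DESeq2 called 4, all higher, of 17 it tested, where it called 26.5% of all genes. Dpf3, which encodes a relative of Dpf2 that can take its place in BAF, was the one called by edgeR. It had 23.0, 16.9, 22.3 and 22.4 CPM in Brg1 cKO replicates 1 to 4, against 13.3, 12.7, 15.5 and 17.4 CPM in Brg1 WT replicates 1 to 4. The groups overlapped through Brg1 cKO replicate 2, and the log2 fold change was 0.52 ± 0.14 (SE, edgeR adjusted p = 0.027), a call that did not hold without Brg1 cKO replicate 1, 3 or 4 or Brg1 WT replicate 1, 2 or 3 (edgeR adjusted p of 0.052 to 0.079). Smarca2, chosen for mention after its values were seen, encodes Brm, the ATPase that can stand in the place of Brg1 in BAF. It had 401, 303, 371 and 404 CPM in Brg1 cKO replicates 1 to 4, against 226, 257, 327 and 340.5 CPM in Brg1 WT replicates 1 to 4. The groups overlapped through Brg1 cKO replicate 2, and the log2 fold change was 0.36 ± 0.14 (SE, edgeR adjusted p = 0.0999), which was not called.

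For 1 subunit of each complex, the genes with the most similar levels over the 8 libraries were listed by Pearson's r of log2 CPM, as a description. Arid1a was followed by Pbxip1 (0.995), Itgb8 (0.988) and Rassf8 (0.982), each of which was called higher, and the shared genotype difference adds to these values. With the genotype means removed they were 0.970, 0.922 and 0.914. Pbrm1 was followed by Oxr1 (0.933), Traf3 (0.917) and Stard9 (0.912), and Brd9 by Cdkn2aip (0.971), Ly6c1 (0.955) and Cngb1 (0.953). With the genotype means removed they were 0.918, 0.885 and 0.881 for Pbrm1, and 0.978, 0.971 and 0.933 for Brd9. A high r did not mean a like genotype difference. Cngb1 was called higher (log2 fold change 1.74, edgeR adjusted p = 0.045), while Brd9 stood at 0.050. The values of r listed are the highest of 16059 genes over 8 libraries, and the genes share each library's genotype, cell mixture and depth.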

How the data were processed

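Gene-level estimated counts, not scaled for depth or length, were deposited by the authors for 8 libraries. Kallisto 0.42.5, edgeR and the build mm9 are named per the submitters' processing notes, and a stranded mRNA kit is named per the labels' protocols. The sources used here do not name the annotation. The estimated counts were rounded, filtered by genotype with filterByExpr (16059 of 28460 genes), scaled with TMM and tested with the robust quasi-likelihood test of edgeR 4.0.16 (R 4.3.3), genotype the only term, with Benjamini-Hochberg adjustment at 0.05. SE is the absolute log2 fold change over the square root of F. Ratios used log2 CPM with a prior count of 2. Alternatives used DESeq2 1.42.0, limma-voom (limma 3.58.1), other factors and filters, left-out libraries and other levels of no change. The rule for naming took all members, the called genes of the other subunits and 3 genes like each of Arid1a, Pbrm1 and Brd9. Members and lists were chosen with earlier results of these data known. Transcript lengths came from GENCODE M21 (GRCm38), matched by symbol for 98.8% of tested genes. No 2 libraries of the same genotype agreed within sampling noise (lowest chi-square per degree of freedom 21.5).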

Additional observations from a re-analysis of the deposited data

Results flagged for a closer look

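In 3 of 38 groups of 4 libraries, 1 library lay far from the other 3 for the size of the group's range, where chance flags about 1 in 20. Arid1a had 265 CPM in Brg1 WT replicate 1, against 295 to 299.7 CPM in Brg1 WT replicates 2 to 4. The summed BAF level in the same library was 75.2 CPM per kb, against 81.0 to 81.6, and Arid1a is the largest term of that sum. Dpf3 had 16.9 CPM in Brg1 cKO replicate 2, against 22.3 to 23.0 CPM in the other Brg1 cKO libraries.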

How the results depend on the processing

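Without both Brg1 WT replicates 1 and 2, 438 genes (2.66%), 0 members and 0 other SWI/SNF subunits were called by edgeR. Gltscr1l had the lowest edgeR adjusted p of the members there, 0.080. By the tools run on all 8 libraries, edgeR called 3312 genes and 6 members, DESeq2 4445 and 7, and limma-voom 3280 and 6. DESeq2 called 4 other subunits. With 1 library left out, the counts ran from 1608 to 3477 genes (9.85% to 21.4%), 3 to 7 members and 0 to 3 other subunits. With the replicate number as a block, 1914 genes (11.9%) and 3 members were called, Arid1a, Arid1b and Gltscr1l. The numbers share no stated source, and the deviations of same-numbered libraries correlated at -0.21, 0.13, -0.37 and 0.15. Relative to the pan-germ cell median 8863 genes (55.2%) and 11 of 16 other subunits were called. Dpf2, Brd7 and Phf10 stood at 0.16, 0.13 and 0.051 there. Relative to the Sertoli cell median 9470 genes (59.0%) and 12 of 16 other subunits were called. There Arid1a, Arid2, Pbrm1, Brd9, Gltscr1 and Gltscr1l stood at -0.14, -0.26, -0.36, -0.39, -0.061 and -0.056. The Gltscr1 to Gltscr1l difference, near 0, ran from -0.047 to 0.018 with 1 library left out and was 0.026 without both Brg1 WT replicates. The 4-pair sign flips of the paralog ratios cannot go below an exact p = 0.125.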
